A study of Homo sapiens with 48 samples.

Results

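Phosphodiesterases of the PDE3, PDE7, PDE8 and PDE10 families, which break down cyclic AMP (cAMP), were followed in BEAS-2B cells, an established human bronchial epithelial line. Enzymes of other families that also act on cAMP are on fixed lists further below, so this set is not complete. The genes followed were PDE3A, PDE3B, PDE7A, PDE7B, PDE8A, PDE8B and PDE10A. They were 7 of 19775 genes that had at least 1 probe set annotated to a single gene symbol, and together they had 26 such probe sets. For each gene the probe set with the highest mean over all arrays was taken as the main one, and the others are given beside it. A gene entered the test if its main probe set lay above the 40th percentile of all genes, a signal of 154.1. That left 11865 genes and 6 of the 7 phosphodiesterases, since PDE10A lay below.

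Confluent cells received GS-5759 at 10 nM, indacaterol with GSK256066 at 10 nM each (Ind/GSK), or vehicle, for 1, 2, 6 or 18 h. GS-5759 is a single molecule that activates the β2-adrenoceptor and inhibits PDE4. In the pair, indacaterol is the agonist, long-acting at that receptor, and GSK256066 is the PDE4 inhibitor. Every culture had been grown in supplemented keratinocyte serum-free medium and then kept without supplements for 24 h. Each of the 12 groups had 4 Affymetrix U133 Plus 2.0 arrays, 48 in all, numbered as replicates 1 to 4. Whether replicates were separate cultures is not given in the labels, so the p-values cover only the spread among these samples.

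β2-adrenoceptors couple through the stimulatory G protein to adenylyl cyclases, which make cAMP, and phosphodiesterases end the signal by hydrolysing it. PDE4 enzymes are specific for cAMP and carry much of this activity in airway cells. PDE7 and PDE8 enzymes are also specific for cAMP, whereas PDE3 and PDE10 enzymes bind both cAMP and cGMP, and PDE3 is slowed by cGMP. A PDE4 inhibitor leaves these other families free to act. Transcription in response to cAMP runs largely through protein kinase A and the factor CREB, which binds the cAMP response element TGACGTCA.

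RefSeq promoter windows on GRCh38.p14 ran from 250 bases before to 50 bases after a transcript start. They were searched for 5 of the 7 genes, namely PDE3A, PDE7B, PDE8A, PDE8B and PDE10A, with 11 windows between them. No window of PDE3B or PDE7A was searched, so the counts below do not cover those genes. Windows on the chromosome that carries PDE7A were left out of this search, but not out of the share of all windows below. The 250 bases before the start are shown for PDE7B and PDE3A, whose signals differed most from vehicle at 6 h. These genes had 1 window each, so any other start they have was not searched. Which starts these cells use was not tested. Both are on the plus strand, PDE7B at chr6:135851451-135851700 and PDE3A at chr12:20571829-20572078. Capitals mark the full cAMP response element.
PDE7B: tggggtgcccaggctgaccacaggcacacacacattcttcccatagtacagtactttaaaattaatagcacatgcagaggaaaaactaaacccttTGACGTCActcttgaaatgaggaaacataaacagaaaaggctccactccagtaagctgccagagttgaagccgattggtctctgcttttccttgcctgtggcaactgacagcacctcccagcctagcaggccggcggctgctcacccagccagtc
PDE3A: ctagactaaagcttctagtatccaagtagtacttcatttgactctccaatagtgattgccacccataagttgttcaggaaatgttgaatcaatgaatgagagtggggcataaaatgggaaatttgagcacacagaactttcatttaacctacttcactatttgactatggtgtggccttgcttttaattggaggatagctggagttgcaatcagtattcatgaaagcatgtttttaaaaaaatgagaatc
The PDE7B window held 1 full element, from 155 to 148 bases before the start. None of the other 10 windows held it. Across all 35116 RefSeq windows of this length, 649 (1.85%) held the full element, which reads the same on both strands. The 5-base core TGACG or its reverse complement CGTCA, both of which overlap the full element, was in 24.6% of all windows and in 1 of these 11, the PDE7B window. A match of letters is a description and not a measured binding site.

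The arrays were close in scale, with medians between 6.998 and 7.172 on the log2(signal + 16) scale and pairwise correlations from 0.9683 to 0.9965. The 12 arrays numbered replicate 3 stood apart from the other 36 in epithelial keratins. KRT5, a basal-cell keratin, had a mean signal of 195 over the 12 arrays of replicate 1, 151 for replicate 2, 32811 for replicate 3 and 148 for replicate 4. KRT19 averaged 3338 for replicate 3 against 60.9 or less for the other numbers, and CDH1, which encodes E-cadherin, averaged 1160.2 against 392 or less. KRT8 and KRT18 were high on all 4. Each group holds 1 array of each number, so this difference lies within groups and not between treatments. The labels do not say whether the replicate numbers came from one stock of the line, so n = 4 counts 4 numbered arrays and not 4 samples known to be alike. Results below are therefore also given without replicate 3. Between treatments at 6 h the summed epithelial list of 7 genes averaged 29202 with GS-5759, 27919 with Ind/GSK and 26950.4 with vehicle. Of the other marker lists, 0 of 4 ciliated and club cell, 1 of 6 fibroblast, 3 of 4 smooth muscle, 1 of 4 leukocyte and 1 of 4 endothelial genes lay above the filter. No marker gene was called in a comparison with vehicle. In these bulk samples fewer cells of a type and less RNA per cell cannot be told apart.

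Both treatments raised PDE7B at 6 h, and it was the only one of the 6 tested genes that passed the test without a term for the replicate number. PDE7B encodes a cAMP-specific enzyme known mainly from brain. At 6 h its signals were 595, 393, 417 and 507 with GS-5759, 565, 420.2, 484 and 488 with Ind/GSK, and 125, 115, 96.8 and 79.4 with vehicle, in the order of replicates 1 to 4. Every treated array lay more than 3-fold above its own-numbered vehicle array, and the groups did not overlap. Among all tested genes, 4.28% lay above vehicle without overlap with GS-5759 and 2.38% with Ind/GSK. The log2 difference from vehicle was 2.04 ± 0.21 (SE) with GS-5759, a 4.10-fold change with a 95% interval of 3.06 to 5.50 (limma, adjusted p = 2.40e-08). With Ind/GSK it was 2.08 ± 0.21, a 4.23-fold change with an interval of 3.16 to 5.67 (limma, adjusted p = 1.33e-08). By size these were the 7th and 8th largest increases among 11865 genes. In the background of all tested genes, 1.26% rose with GS-5759 and 1.28% with Ind/GSK at 6 h. Vehicle cells averaged 124 for PDE7B over the 4 times, under the filter level, and only 4 of the 12 groups had a mean on the log2 scale above it. The gene thus entered the test through the groups in which it was high, and its call is not counted as support for anything about the set. Folds are on the log2(signal + 16) scale, which understates changes from low signals.

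All 3 PDE7B probe sets rose with both drugs in a fit of 41091 single-symbol probe sets, where 0.613% rose with GS-5759 and 0.604% with Ind/GSK at 6 h. The dimmest of them, with a mean signal of 42.4 over all arrays, read 129.9, 89.8, 87.6 and 113 with GS-5759, 129, 99, 131 and 116 with Ind/GSK, and 19.1, 10.5, 18.3 and 27.1 with vehicle. Its changes were 1.81 ± 0.26 and 1.97 ± 0.26 (limma, adjusted p = 2.86e-05 and 4.75e-06). The remaining one, with a mean signal of 64.9, changed by 0.82 ± 0.14 with each drug (limma, adjusted p = 0.000694 with GS-5759 and 0.000502 with Ind/GSK). Without the arrays of replicate 3 the main probe set rose by 2.07 and 2.06 (limma, adjusted p = 6.64e-10 and 7.5e-10).

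**Figure D1:**
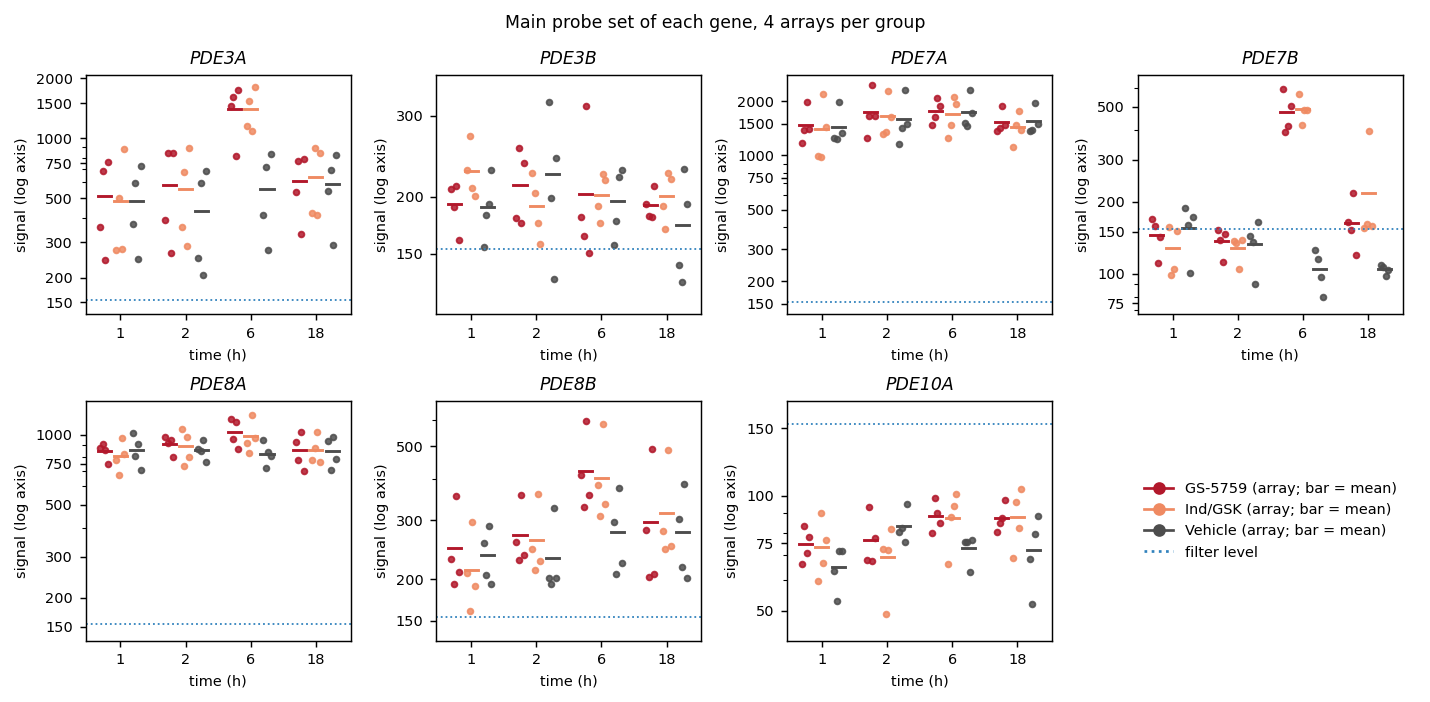
Signal of the main probe set of each gene on a log axis, by time in h and treatment, with 1 point per array (4 per group), a bar at each group mean and a dotted line at the filter level of 154.1. PDE7B stands apart at 6 h, where the treated arrays lie between 393 and 595 and the vehicle arrays between 79.4 and 125, and PDE10A lies below the filter level in every group.

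The PDE7B response was called at 6 h and not at 1 or 2 h. At 1 h its means were 145 ± 25.3 with GS-5759, 128 ± 30.3 with Ind/GSK and 155 ± 38.4 with vehicle (SD, n = 4 each), and at 2 h they were 137 ± 17.9, 128 ± 15.9 and 134 ± 31.3 in the same order. All of these groups overlapped. The mean response of both drugs was 2.05 ± 0.26 larger at 6 h than at 2 h (limma, adjusted p = 5.89e-06), and 1.36 ± 0.26 smaller at 18 h than at 6 h, a difference of -1.36 (limma, adjusted p = 0.00473). The response of 0.708% of genes changed between 2 and 6 h and that of 0.556% between 6 and 18 h. Leaving out all arrays of one number kept the 6 h rise and the 2 to 6 h change, but the 6 to 18 h change was no longer called without replicate 1, 2 or 4 (limma, adjusted p = 0.108, 0.139 and 0.305). With the replicate number as a block it was called in each of these cases. In the block fit of all arrays the responses of 6.66% of genes changed between 2 and 6 h and of 7.45% between 6 and 18 h.

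At 18 h PDE7B read 164, 152, 217 and 119.9 with GS-5759, 156, 162, 395 and 158 with Ind/GSK, and 109, 107, 97.6 and 103 with vehicle. The vehicle arrays lay below every treated array, and replicate 3 with Ind/GSK lay far above the rest. Among all tested genes 1.45% with GS-5759 and 1.09% with Ind/GSK lay above vehicle without overlap. The changes of 0.55 ± 0.21 with GS-5759 and 0.85 ± 0.21 with Ind/GSK did not pass the test (limma, adjusted p = 1 and 0.162). At this time limma called 0% of genes with GS-5759 (313 genes had an unadjusted p under 0.05, and 26 were called with the replicate block) and 0.0506% with Ind/GSK. With the replicate block the Ind/GSK change passed (limma, adjusted p = 0.0187), where 0.674% of genes rose, and it did not with the block once replicate 1 or 3 was left out, at 0.98 and 0.51 (limma, adjusted p = 0.118 and 0.0982). Vehicle groups at 18 h and 1 h averaged 104 ± 5.05 and 155 ± 38.4, a difference of -0.48 ± 0.21 that was negative in 4 of 4 pairs and was not called (limma, adjusted p = 0.201), while 5.72% of all genes were.

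PDE3A encodes a cGMP-inhibited phosphodiesterase best known from heart, platelets and vascular smooth muscle. Its signals at 6 h were 1447, 1610.3, 813 and 1737 with GS-5759, 1154, 1539, 1092 and 1813 with Ind/GSK, and 411, 715, 275 and 830.1 with vehicle. Each treated array was above the vehicle array of its own number, by 2.09-fold to 3.52-fold with GS-5759 and 2.15-fold to 3.98-fold with Ind/GSK. The GS-5759 and vehicle groups overlapped by replicate 3, whose treated value of 813 was below the highest vehicle value, and the Ind/GSK and vehicle groups did not overlap. The log2 differences were 1.37 ± 0.46 with GS-5759 (2.59-fold) and 1.40 ± 0.46 with Ind/GSK (2.63-fold), and neither passed without the block (limma, adjusted p = 0.134 and 0.0714). With the replicate number as a block the SE was 0.15 and both passed (limma, adjusted p = 1.39e-08 and 7.21e-09). In that fit 7.48% of genes rose with GS-5759 and 5.53% with Ind/GSK at 6 h.

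PDE3A also differed by replicate number. Over 12 arrays each, its mean signal was 543 for replicate 1, 843 for replicate 2, 396 for replicate 3 and 968 for replicate 4. Replicate 3 was the lowest in 11 of 12 groups and replicate 4 the highest in 10. Without replicate 3 the changes were 1.33 and 1.22 (limma, adjusted p = 0.109 and 0.0963, and 6.55e-06 and 2.4e-05 with the block). All 4 PDE3A probe sets had positive changes at 6 h, from 0.92 to 1.37 with GS-5759 and from 0.92 to 1.40 with Ind/GSK. None of the 4 passed in the fit of all probe sets without the block, and 4 of 4 passed with it for each drug, beside 3.55% of all probe sets with GS-5759 and 2.9% with Ind/GSK.

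At 2 h PDE3A averaged 584 ± 301 with GS-5759, 554 ± 281 with Ind/GSK and 433 ± 240.4 with vehicle, differences of 0.43 and 0.38 that were not called in either fit (limma, adjusted p = 0.0516 and 0.0825 with the block). At 18 h the means were 606 ± 215, 641 ± 259.8 and 588 ± 227 in the same order, and the differences from vehicle were 0.06 and 0.13. With the block, the mean drug response was 0.98 ± 0.18 larger at 6 h than at 2 h (limma, adjusted p = 0.000449) and differed by -1.29 ± 0.18 between 18 h and 6 h (limma, adjusted p = 8.03e-06). Neither change passed without the block (limma, adjusted p = 0.722 and 0.441).

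**Figure D2:**
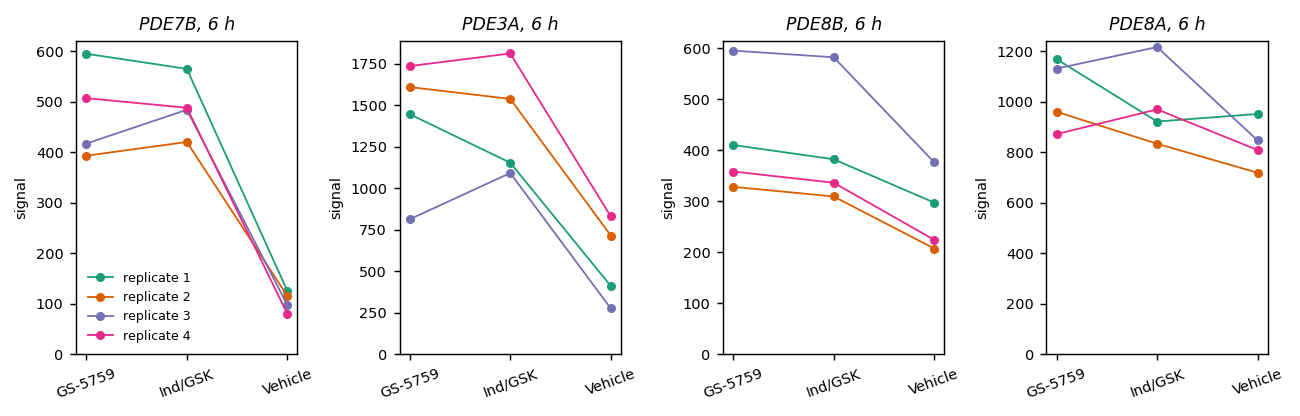
Signal at 6 h of 4 genes on linear axes from 0, with GS-5759, Ind/GSK and vehicle from left to right and a line joining the 3 arrays of one replicate number. For PDE7B, PDE3A and PDE8B all lines end lower in vehicle; the PDE3A and PDE8B lines are also set apart by replicate number, with replicate 3 lowest for PDE3A and highest for PDE8B.

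PDE8B encodes a cAMP-specific phosphodiesterase with high affinity for its substrate, known from thyroid and adrenal tissue. At 6 h it read 410, 328, 595 and 358 with GS-5759, 382, 309, 582 and 336 with Ind/GSK, and 297, 207, 376 and 224 with vehicle. The groups overlapped, with replicate 3 highest in all 12 groups of the series, yet in 4 of 4 pairs each drug's array was above its vehicle array. The changes were 0.59 ± 0.26 with GS-5759 (1.5-fold) and 0.51 ± 0.26 with Ind/GSK (1.43-fold), not called without the block (limma, adjusted p = 0.310 and 0.315). With the block the SE was 0.08 and both were called (limma, adjusted p = 9.14e-07 and 8.41e-06). Without replicate 3 the changes of 0.57 and 0.48 were called without the block too (limma, adjusted p = 0.0249 and 0.0447). The share of all genes called in that fit was not counted.

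The block fit also called the PDE8B response as 0.35 ± 0.10 larger at 6 h than at 2 h (limma, adjusted p = 0.0188) and different by -0.44 ± 0.10 between 18 h and 6 h (limma, adjusted p = 0.0029). Without replicate 3 the block fit called 2 more PDE8B changes, 0.26 with GS-5759 at 2 h and -0.22 with Ind/GSK at 1 h (limma, adjusted p = 0.035 and 0.0449). The shares of all genes called in that fit were not counted. With all arrays kept, the median change of the tested genes with Ind/GSK at 1 h was -0.11. A second PDE8B probe set, with a mean signal of 158, changed by 0.55 ± 0.31 with each drug at 6 h and was called in the block fit of all probe sets only (limma, adjusted p = 0.000393 and 0.000309). The third, with a mean signal of 89.6, changed by 0.11 ± 0.13 and 0.07 ± 0.13 and passed in neither fit, so the probe sets of this gene disagreed in size.

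PDE8A, the close relative of PDE8B, is more widely expressed. It read 1168, 959.6, 1130.4 and 871 with GS-5759 at 6 h, 921, 833, 1216 and 969 with Ind/GSK, and 951, 718, 846 and 808 with vehicle. The treated and vehicle arrays overlapped. GS-5759 arrays were above vehicle in 4 of 4 pairs, a change of 0.30 ± 0.14 (1.24-fold) that passed with the block and not without it (limma, adjusted p = 0.0218 and 0.311). It was not called with the block once all arrays of replicate 1, 2 or 3 were left out (limma, adjusted p = 0.0521, 0.0998 and 0.154). Ind/GSK arrays were above vehicle in 3 of 4 pairs, a change of 0.23 ± 0.14 that passed in neither fit (limma, adjusted p = 0.0607 with the block and 0.413 without) and was called with the block at 0.33 without replicate 1 (limma, adjusted p = 0.0253).

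The signs of the 4 PDE8A probe sets were not all alike. At 6 h with GS-5759 those with mean signals of 412 and 229.7 changed by 0.36 ± 0.13 and 0.29 ± 0.13, higher than vehicle in 4 of 4 pairs, and the dimmest, with a mean signal of 19.9, by -0.30 ± 0.19, lower in 4 of 4 pairs. With Ind/GSK the same 3 changed by 0.25, 0.17 and 0.12. None of the 4 was called without the block. With it, 3 of 4 were called as risen with GS-5759 (limma, adjusted p = 0.044 for the main one, 0.00188 and 0.0213) and 1 of 4, that with a mean signal of 412, with Ind/GSK (limma, adjusted p = 0.0268). The one with a mean signal of 229.7 fell with Ind/GSK at 1 h by 0.31 ± 0.08 in that fit (limma, adjusted p = 0.0125). There 10.3% of all probe sets were called, and the median change of the tested genes was -0.11.

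PDE3B, known from fat and liver cells as an insulin-regulated enzyme, and PDE7A, known from T cells, were called in no comparison in either fit by their main probe sets. PDE3B averaged 202 ± 75.4 with GS-5759, 201 ± 22.9 with Ind/GSK and 195 ± 34.2 with vehicle at 6 h, and its group means over the series ran from 174 to 227. Its 6 h differences of 0.01 and 0.05 had 95% intervals of -0.38 to 0.39 and -0.33 to 0.43. PDE7A averaged 1768 ± 269 with GS-5759, 1693 ± 404 with Ind/GSK and 1747 ± 387 with vehicle at 6 h. Its differences of 0.03 and -0.05 had intervals of -0.45 to 0.50 and -0.53 to 0.42. PDE7A was highest in replicate 3 in all 12 groups, at a mean of 2111 against 1266, 1405 and 1571 for replicates 1, 2 and 4. The 6 probe sets of PDE7A and the 3 of PDE3B gave no call at 6 h in either fit of all probe sets. At 1 h with Ind/GSK, 2 of the 6 PDE7A probe sets, with mean signals of 359 and 127, fell in the block fit by 0.29 ± 0.08 and 0.51 ± 0.11 (limma, adjusted p = 0.0219 and 0.00455), in 4 of 4 pairs each, where 10.3% of all probe sets were called and the median change of the tested genes was -0.11. Neither was called without the block (limma, adjusted p = 0.546 and 0.197).

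PDE10A, a dual-substrate enzyme best known from striatal neurons, was near background by its main probe set. Its mean signal was 78.1, at percentile 27.6 of all genes, and 0 of 12 groups reached the filter level. A list of genes restricted to other tissues gave a second measure of background, with a median of 54 over the 22 that were in the table and a range of 9.09 to 676. At 6 h the main probe set read 79.7, 98.8, 90.3 and 84.8 with GS-5759, 66.4, 87.9, 94.1 and 101 with Ind/GSK, and 75.8, 75.7, 63.2 and 76.5 with vehicle. The GS-5759 arrays lay above all vehicle arrays by a small margin, and the Ind/GSK arrays overlapped them. Among the tested genes, which leave out PDE10A, 4.28% lay above vehicle without overlap with GS-5759. The share among genes below the filter was not counted. When all genes were tested without a filter, its changes of 0.23 ± 0.13 and 0.21 ± 0.13 were not called (limma, adjusted p = 0.525 and 0.604).

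A dimmer PDE10A probe set, with a mean signal of 44.1, behaved differently from the main one. Its signals at 6 h were 94, 106, 64.4 and 84.3 with GS-5759, 81.8, 94.9, 68.2 and 108 with Ind/GSK, and 27.2, 29.3, 18 and 33.7 with vehicle. The treated arrays were all above the vehicle arrays, although every value was below the filter level. How many probe sets this dim did the same was not counted. Among the tested genes the shares were 4.28% with GS-5759 and 2.38% with Ind/GSK. In the fit of all probe sets it rose by 1.26 ± 0.20 with GS-5759 and 1.28 ± 0.20 with Ind/GSK (limma, adjusted p = 0.000145 and 9.98e-05). Its response grew by 1.25 ± 0.24 between 2 and 6 h (limma, adjusted p = 0.00798) and differed by -1.35 ± 0.24 between 18 h and 6 h (limma, adjusted p = 0.00377), steps at which 0.243% and 0.202% of all probe sets changed. The third probe set changed by 0.14 ± 0.11 and 0.07 ± 0.11. The 3 probe sets of PDE10A thus disagreed, and which transcripts each reads was not tested.

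**Figure D3:**
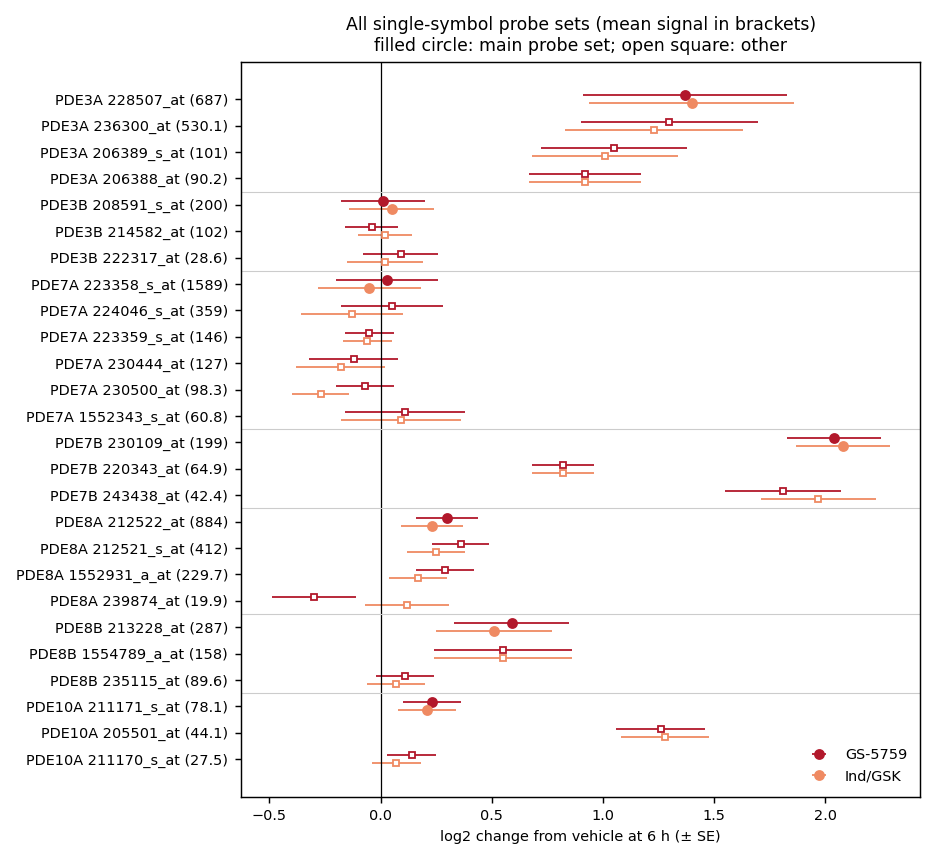
Log2 change from vehicle at 6 h (horizontal axis, ± SE) of all 26 single-symbol probe sets, with GS-5759 drawn above Ind/GSK in each row, filled circles for main probe sets, open squares for the others, and the mean signal in brackets. All probe sets of PDE7B and PDE3A lie at or above 0.82, while those of PDE10A and PDE8B are spread, with 1 PDE10A probe set at 1.26 and 1.28 and the other 2 at or below 0.23.

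The order of the 12 group means differed between genes. For PDE7B the order began with Ind/GSK at 6 h (489), GS-5759 at 6 h (478), Ind/GSK at 18 h (218) and GS-5759 at 18 h (163), and ended with vehicle at 18 h and 6 h (104 each). For PDE3A it began with Ind/GSK at 6 h (1399.7 ± 339) and GS-5759 at 6 h (1402 ± 409.8), ordered by mean log2, then Ind/GSK at 18 h (641), and ended with vehicle at 2 h (433). In both genes only 1 of the 11 gaps between neighbours, that between the 6 h drug groups and the next group, was larger than the pooled SD of the groups (0.30 for PDE7B and 0.67 for PDE3A on the log2 scale). PDE8B and PDE8A also had both 6 h drug groups on top, at 423 and 402 for GS-5759 and Ind/GSK in PDE8B and 1032 and 985 in PDE8A, with 0 of 11 gaps beyond the pooled SD. PDE3B, PDE7A and PDE10A had 0 of 11 such gaps and group means within 0.38, 0.40 and 0.37 log2 units of each other.

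The comparison of GS-5759 with Ind/GSK asks whether the bifunctional molecule and the pair of separate drugs differ at the same dose and time. None of the 6 tested genes differed at any time in either fit, and limma called 0 of 11865 genes at each of the 4 times. At an unadjusted p under 0.05 there were 709, 194, 395 and 41 genes at 1, 2, 6 and 18 h, and none of the 6 was among them. With the block limma also called 0 genes at each time, and 2464, 715, 1404 and 213 had an unadjusted p under 0.05. PDE8B at 1 h was the only one of the 6 among these, 0.19 ± 0.08 higher with GS-5759 than with Ind/GSK in 4 of 4 pairs (limma, adjusted p = 0.198). The median of all tested genes in that comparison was 0.09. Averaged over the 4 times, 1 PDE7A probe set, with a mean signal of 359, was 0.16 ± 0.04 higher with GS-5759 in the block fit of all probe sets (limma, adjusted p = 0.0178, and 0.501 without the block), where 7.78% of probe sets were called. The median of all tested genes in this average was 0.06. Without the block, 6 genes were called higher and 3 lower with GS-5759 in it, and none of the 6 phosphodiesterases was among them. At 6 h the PDE7B difference was -0.04 with a 95% interval of -0.47 to 0.38. For PDE3A it was -0.02 with an interval of -0.96 to 0.91, or -0.32 to 0.28 with the block. For PDE8B it was 0.07, with an interval of -0.45 to 0.60, or -0.08 to 0.23 with the block. The drug comparisons with vehicle share the vehicle arrays, so their similar sizes are not independent of each other.

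The PDE4 genes, targets of GSK256066 and of GS-5759, were looked at beside this set. PDE4D, with a mean of 2347 ± 990.5 with GS-5759, 2398 ± 1249.6 with Ind/GSK and 409.9 ± 128 with vehicle at 2 h, rose by 2.43 ± 0.44 and 2.41 ± 0.44 (limma, adjusted p = 0.000414 and 0.000466). At 6 h its changes were 1.69 and 1.84 (limma, adjusted p = 0.0327 and 0.00919). PDE4B rose by 1.01 and 0.93 at 2 h (limma, adjusted p = 0.00864 and 0.0145) and was not called at 6 h. At 2 h 2 of 3 tested PDE4 genes and 0 of the 6 tested genes of this set were called as risen with each drug. At that time 1.97% of all genes rose with GS-5759 and 1.69% with Ind/GSK. At 1 h none of the 6 was called with either drug, beside 0.32% of all genes with GS-5759 and 2.47% with Ind/GSK. PDE4A, the third tested PDE4 gene, with a mean signal of 603, was called in no comparison with vehicle without the block. The difference between the families was not tested, and that between 2 and 6 h in PDE4D is not given here.

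**Figure D4:**
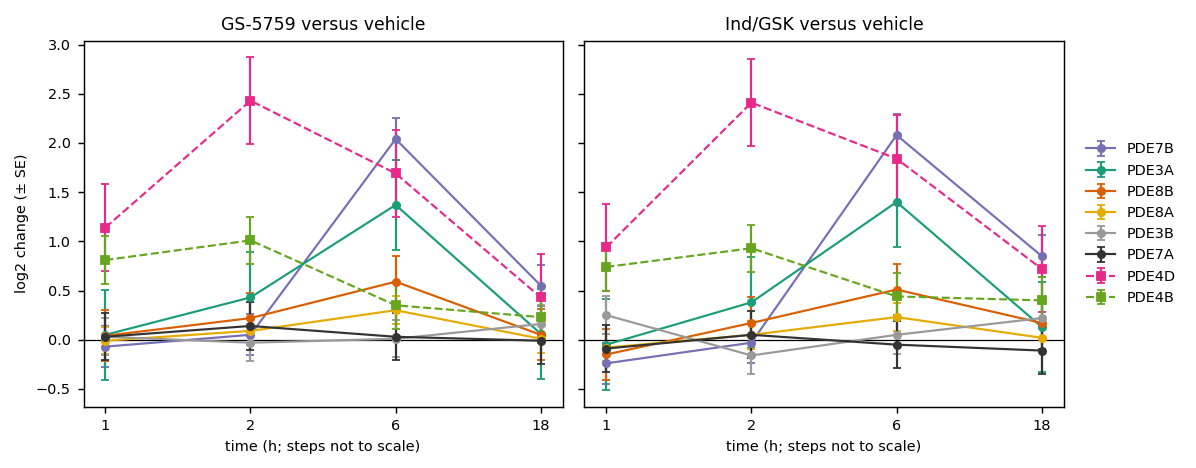
Log2 change from vehicle (± SE, 4 arrays per group) against time at 1, 2, 6 and 18 h, with GS-5759 on the left and Ind/GSK on the right, for the 6 tested genes (solid lines) and PDE4D and PDE4B (dashed lines). PDE7B, PDE3A and PDE8B have their largest change at 6 h, whereas PDE4D and PDE4B have theirs at 2 h. PDE4A is not drawn.

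Other genes of the pathway were taken from fixed lists. Among cAMP response genes, 4 of 5 tested rose with each drug at 1 h and 5 of 5 at 2 h. That list was chosen with earlier results of these data known. Of all 11865 tested genes, 37 rose with GS-5759 and 57 with Ind/GSK at 1 h, and 1.97% and 1.69% rose at 2 h. At 2 h SIK1, a kinase that restrains CREB coactivators, rose by 2.74 and 2.58, and RGS2, a regulator of Gq signalling, by 2.20 and 2.11. The nuclear receptor genes NR4A2 and NR4A1 rose by 4.24 and 4.14 and by 2.03 and 1.91, and CREM, a cAMP-responsive repressor and activator gene, by 0.47 and 0.43, with GS-5759 and Ind/GSK in that order. At 6 h 0 of 5 were called with GS-5759 and 2 of 5, SIK1 and RGS2, with Ind/GSK. Of all tested genes, 150 rose and 73 fell with GS-5759 at 6 h, and 152 rose and 443 fell with Ind/GSK. Of 13 other dual or cGMP phosphodiesterases on the list, 12 had a single-symbol probe set and 4 were tested, and none was called without the block. With it, PDE1C, a calmodulin-dependent enzyme, fell at 6 h by 0.54 and 0.58 (limma, adjusted p = 0.00204 and 0.000532) and PDE6A, known from rod photoreceptors, rose by 0.37 and 0.34 (limma, adjusted p = 0.00818 and 0.00968). At 18 h with Ind/GSK the same genes fell by 0.73 and rose by 0.50 (limma, adjusted p = 0.000435 and 0.00326 with the block). Of the cAMP synthesis list 0 of 6 tested and of the effector and export list 0 of 7 tested were called without the block. With it, at 6 h, 1 synthesis gene rose and 2 fell with GS-5759 and 2 fell with Ind/GSK, and 1 effector gene fell with Ind/GSK. In the block fit 7.48% of all genes rose with GS-5759 and 5.53% with Ind/GSK at 6 h, and 0.674% with Ind/GSK at 18 h. The share of all genes that fell in the block fit is not given here, so these falls have no background beside them. Among known partners of the enzymes, the 14-3-3 genes YWHAB and YWHAZ changed by -0.13 and -0.21 with Ind/GSK at 2 h (limma, adjusted p = 0.031 and 0.0105). There the median of all genes was -0.05, and 333 of 11865 genes were called as fallen.

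The median change of the 6 tested phosphodiesterases at 6 h was 0.45 with GS-5759 and 0.37 with Ind/GSK, beside 0 and -0.05 for all genes. Without PDE7B, which passed the filter through the groups in which it was high, the medians of the other 5 were 0.30 and 0.23. At 1, 2 and 18 h the medians of all 6 were 0.03, 0.11 and 0.05 with GS-5759 and -0.09, 0.05 and 0.15 with Ind/GSK.

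The tested genes whose 12 group means followed a member most closely are given as a description, since the group means share arrays and treatment times. For PDE7B they were PITPNC1, a lipid transfer protein gene (r = 0.976 over 12 group means), CREB3L4, a transcription factor gene (r = 0.965), and ITPR1, the inositol trisphosphate receptor gene (r = 0.955). For PDE3A they were C1orf21 (r = 0.988), ITPR1 (r = 0.983) and NETO1, a receptor auxiliary subunit gene (r = 0.979). Over the 48 single arrays, where replicate numbers also count, r was 0.786 for PDE7B with PITPNC1 and 0.904 for PDE3A with C1orf21, but 0.512 for PDE3A with ITPR1. For PDE8B they were SLC9A3-AS1, POGLUT1 and PLXDC2 (r from 0.988 to 0.972), and for PDE8A ANKRD28, LARP4 and GALNT15 (0.976 to 0.951). In the same order, the single arrays gave r of -0.012, 0.561 and 0.52 for PDE8B and -0.042, 0.265 and 0.511 for PDE8A. MYCN, KRTAP1-3 and CTSS came closest to PDE3B (0.963 to 0.934), and MICAL2, MYB and RRP1B to PDE7A (0.975 to 0.942), over group means that themselves moved little. Over single arrays the r of PDE7A with MICAL2 was -0.525.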

How the data were processed

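The authors deposited linear probe set intensities. Per the submitters' processing notes, they used PLIER and Affymetrix Expression Console. Versions and the normalization between arrays were not given in the sources used here. Of 54675 probe sets, 41091 had 1 symbol, 1801 had several, 11721 had none and 62 were controls. Symbols of 41037 were matched to current ones.

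Intensities were analysed as log2(value + 16). Group means were fitted over 48 arrays in R 4.3.3 by limma's lmFit and eBayes (version 3.58.1, 36 residual degrees of freedom), without a replicate term. P-values were adjusted by Benjamini-Hochberg over 11865 genes per contrast, with calls at 0.05. The number of arrays limits the precision. On simulated data for GS-5759 against vehicle at 6 h (11865 genes), 92% of changes of log2 size 1 and 98% of size 2 were recovered. In that simulation 7 unchanged genes were also called. Its noise was drawn independently for each array, unlike that of the same-numbered arrays here. The rates are over genes drawn at random and do not hold for a gene with a wide spread.

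Replicate numbers came from sample titles. After group means were removed, the deviations of same-numbered arrays correlated in all 52 pairs (0.3 to 0.95, minimum set at 0.1), so the numbers were taken to pair samples, and fits with the number as a block are given where they change a call. Arrays of different numbers reached 0.77.

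Named genes were the 7 members, the 3 tested genes closest to each tested member over group means, and members of fixed lists called in at least 1 of 8 comparisons with vehicle. Genes called only with the block and keratins were named after their values were seen. Members and lists were chosen with earlier results of these data known. Alternatives covered scaling, pseudocount, filter, spread, trend, block, probe sets and left-out arrays. Figures were drawn with matplotlib 3.10.9.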

Additional observations from a re-analysis of the deposited data

Results flagged for a closer look

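Among 84 groups of 4 arrays examined, 5 had 1 array far from the other 3 relative to the group's range, and chance alone flags about 1 in 20 groups. All 5 were arrays of replicate 3. PDE7B with Ind/GSK at 18 h read 395 there, against 156 to 162 on the other arrays, and with Ind/GSK at 2 h it read 105, against 134 to 138. PDE7A with vehicle at 1 h read 1972, against 1233 to 1332. PDE8B with vehicle at 2 h read 327, against 193 to 202. PDE10A with vehicle at 6 h read 63.2, against 75.7 to 76.5, all below the filter level.

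The response of PDE7B to the drugs differed between times by the test of the difference itself. It was 2.05 ± 0.26 log2 units larger at 6 h than at 2 h (limma, adjusted p = 5.89e-06), and the difference between 18 h and 6 h was -1.36 ± 0.26 (limma, adjusted p = 0.00473). Without replicate 3 these differences were 2.13 and -1.61.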

How the results depend on the processing

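The number of calls among the members depended on the replicate block. Over 6 genes and 4 times, 1 change with GS-5759 and 1 with Ind/GSK was called without the block, and 4 and 4 with the replicate block. Changes of the drug response between neighbouring times numbered 2 without and 6 with the block. The shares of all genes called grew with the block too. At 6 h, 1.26% rose with GS-5759 without it and 7.48% with it, and 1.28% and 5.53% with Ind/GSK. Response changes from 2 to 6 h grew from 0.708% to 6.66% of genes, and those from 6 to 18 h from 0.556% to 7.45%. The 4 calls of GS-5759 were PDE3A, PDE7B, PDE8A and PDE8B at 6 h, and those of Ind/GSK were PDE3A, PDE7B and PDE8B at 6 h and PDE7B at 18 h. Leaving out all arrays of one replicate number gave 1 to 2 calls with each drug and 1 to 2 response changes without the block, where the second call with each drug was PDE8B without replicate 3. With the block it gave 3 to 4 calls with GS-5759, 4 with Ind/GSK and 4, 5 or 6 response changes. The 4 with Ind/GSK were not the same ones throughout: PDE7B at 18 h was lost without replicate 1 or 3, and PDE8A at 6 h or PDE8B at 1 h was gained. For vehicle at 18 h against 1 h there were 0 calls, and 1, PDE7B, without replicate 3. The shares of all genes called in the fits with a replicate number left out were not counted. GS-5759 against Ind/GSK at the 4 single times gave 0 calls of main probe sets under every setting run.

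The PDE7B rise at 6 h was called under all 10 other settings, from 1.68 to 2.19 with GS-5759 and from 1.72 to 2.23 with Ind/GSK, the lowest with pseudocount 64. No called member change reversed under any setting run. Centring arrays on their 75th percentile moved the median change of all genes with Ind/GSK at 1 h to 0.015, against -0.106 as deposited, and no member was called there under either. A filter over all probe sets instead of genes (level 75.42, chosen after seeing the data) would test 14409 genes and all 7 members. Left-out replicate numbers were also chosen after seeing the data. PDE10A and vehicle PDE7B lie near background, where signals limit what can be seen.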

Other observations

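Several marker genes outside the phosphodiesterases differed by replicate number in the same arrays in which PDE3A was lowest and PDE7A and PDE8B were highest. KRT7, a keratin of simple epithelia, averaged 2868, 578, 7185 and 481 over the 12 arrays of replicates 1 to 4, and EPCAM, an epithelial adhesion molecule gene, averaged 111, 65.3, 184 and 55. KRT5 ran from 29513 to 36309 on the 12 arrays of replicate 3 and did not exceed 277 on any other array. CD14, a monocyte marker that epithelial cells can also express, averaged 136, 70, 210.3 and 57.4 in the same order. COL1A1, a collagen gene of the fibroblast list, averaged 8465, 9831, 7455 and 10390.4, lowest in replicate 3. The rest of that list lay below the filter and did not all go that way. DCN averaged 132, 125, 189.7 and 116, and COL1A2 139, 122, 149 and 132, both highest in replicate 3. LUM and PDGFRA were also highest there, by less, and COL3A1 was lowest there. The part of these differences in the spread of the phosphodiesterases was not tested.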
